A study of Mus musculus with 3 samples.

Results

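The core circadian clock genes Clock, Arntl (also called Bmal1), Per1, Per2, Per3, Cry1, Cry2, Nr1d1, Nr1d2 and Dbp were followed in mouse bone marrow during treatment with leukocyte cell-derived chemotaxin 2 (LECT2). They were chosen by name, as 10 of the 17250 gene names in the expression tables, and each had a single entry. LECT2 is a cytokine that the study examined as a regulator of haematopoietic stem cells. Recombinant LECT2 was given subcutaneously to C57BL/6 mice of 6 to 8 weeks of age, as 1 daily injection of 300 μg per kg on 3 or 5 days, and the mice of the 0-day sample carry no injection in their labels. Marrow cells were flushed from the long bones and pelvis, and poly(A) RNA was sequenced. The labels and methods name flushed marrow cells and no sorting step, whereas a supplementary legend of the study calls the material mononuclear cells, so that the share of granulocytes kept is uncertain. There was 1 library per time point and therefore no replicate, so that no p value is given and intervals cover counting error only. The methods place the killing of mice within hours of the final injection. The number of mice in a library and the hour of the day at which marrow was taken are not given in the sources used here.

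In the mammalian clock, CLOCK and BMAL1 form a heterodimer that binds E-box sequences and drives transcription of the Per and Cry genes, whose products return to the nucleus and inhibit that heterodimer. A second loop runs through the nuclear receptors REV-ERBα (Nr1d1) and REV-ERBβ (Nr1d2), which are E-box targets and repress Arntl and Cry1, with ROR receptors acting on the same elements as activators. Dbp, a PAR bZIP transcription factor, is an E-box output gene that binds D-box sequences, and in many tissues Arntl messenger RNA (mRNA) peaks when Nr1d1 and Dbp are low. The clock runs in haematopoietic tissue too, where the release of progenitors and the traffic of leukocytes vary with the hour of the day. The clock genes therefore bear on whether marrow of the 3 time points differed in clock phase.

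Some of these promoters hold the elements through which the loops act, and 4 stretches are shown to connect the named genes with them. A promoter sequence from RefSeq (build GRCm38.p6) was found for 9 of the 10 genes, with 13 windows in all because some genes have several start sites. Each stretch below is 80 bases long and is read 5′ to 3′ on the strand of the gene, with the element in capitals: an E-box in Per1 and in Cry1, a pair of D-boxes in Per3 and the core of a ROR site in Nr1d2.
Per1, chr11:69098746-69098825, plus strand: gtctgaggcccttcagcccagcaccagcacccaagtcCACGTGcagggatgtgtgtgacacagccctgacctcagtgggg
Cry1, chr10:85185072-85185151, minus strand: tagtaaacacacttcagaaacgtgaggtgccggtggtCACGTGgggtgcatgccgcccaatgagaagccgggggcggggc
Per3, chr4:151044804-151044883, minus strand: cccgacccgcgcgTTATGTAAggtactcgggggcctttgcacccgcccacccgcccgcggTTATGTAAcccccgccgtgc
Nr1d2, chr14:18239141-18239220, minus strand: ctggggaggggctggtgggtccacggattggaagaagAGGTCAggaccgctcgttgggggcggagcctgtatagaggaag
The E-box CACGTG began 166 bases upstream of the start in Per1 and 60 bases upstream in Cry1. It was found in 2 of the 13 windows of clock genes and in 6.02% of the 32851 windows of all genes, when the 250 bases upstream of each start were searched on both strands. The D-box TTATGTAA lay 205 and 158 bases upstream of Per3, and 0.819% of all windows held it. The ROR core AGGTCA, which is shared by the sites of many nuclear receptors, lay 77 bases upstream of Nr1d2, and was also found in Per1 and Clock on the opposite strand, 137 and 119 bases upstream. Of all windows, 14.0% held this short core. The D-box TTACGTAA and the cyclic AMP element TGACGTCA were found in 0 windows of clock genes, and in 0.113% and 1.55% of all windows. These are matches of letters, and binding was not measured.

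The libraries were of similar depth, with 15146983 to 15523952 reads on genes. Values are reads per kilobase of gene per 1000000 reads on genes (RPKM), on which levels of genes of unequal length can be compared, and a change is the log2 ratio of RPKM + 0.1 with the 95% exact interval of the ratio of counts. The 11144 genes whose mean reached 1 RPKM had a median change of 0.10 between 0 and 3 days, 0.31 between 0 and 5 days and 0.25 between 3 and 5 days. After scaling by the trimmed mean of M values (TMM) these medians were 0.02, 0.01 and 0.03, so that a log2 ratio at 5 days has to be read against 0.31. The ratios also depended on gene length. At 5 days the lowest decile of genes by length, up to 1050 bases, had a median of -0.43 and the highest decile, from 5801 bases, had a median of 0.85. The clock genes ran from 1678 to 7478 bases, with a median of 4329.5 against 2696.5 for all genes, although Dbp and Nr1d1 were shorter than that. The values with the length trend removed are therefore given beside many of the plain ones.

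All 10 clock genes were detected in every library. In the order 0, 3 and 5 days they held 5427, 5233 and 5328 reads together, or 350, 345 and 343 RPM (the RPKM scale without division by gene length). Per1 was the most abundant in each library, with Arntl in second place and Cry1 after it, and these neighbours differed beyond counting error in each library. Below them the order was less firm. At 0 days Nr1d2 came next and differed from Cry2, whereas Cry2 and Per2 did not differ beyond counting error, and neither did any neighbours among Dbp, Clock, Nr1d1 and Per3, which were the lowest. At 3 days the neighbours in the run from Nr1d2 through Per2, Cry2 and Dbp to Clock did not differ beyond counting error, and Per3 and Nr1d1 were lowest. At 5 days Cry2, Nr1d2 and Clock followed Cry1 without differing from their neighbours in this run, then came Per2, and Per3, Dbp and Nr1d1 were lowest. On plain RPKM, without removal of the length trend, Clock thus stood in eighth place at 0 and 3 days and in sixth place at 5 days.

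**Figure D1:**
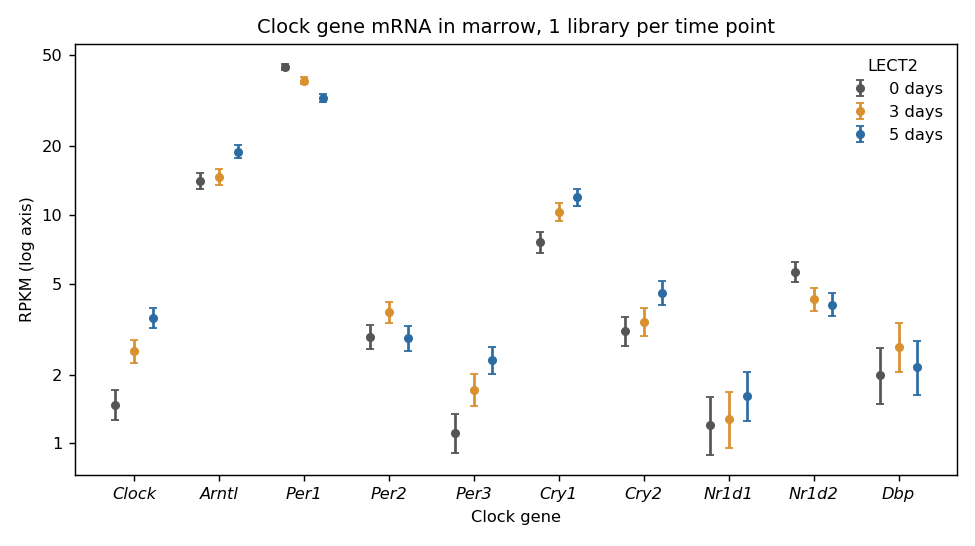
mRNA level of the 10 clock genes in RPKM (log axis) in the libraries of 0, 3 and 5 days of LECT2, with bars for the 95% exact Poisson interval of the read count. Per1 lies highest in each library and falls from 44.1 to 32.2 RPKM, Clock and Per3 climb through the 3 libraries, and for Nr1d1, as for Dbp, the intervals of the 3 libraries overlap one another.

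Clock encodes the histone acetyltransferase partner of the activating heterodimer (Entrez 12753; chr5:76209868-76304792, minus strand, GRCm38). It was counted with 171, 286 and 410 reads at 0, 3 and 5 days, which is 1.47, 2.52 and 3.53 RPKM. Each library was higher than the one before. The log2 ratio was 0.74 (0.50 to 1.06) at 3 days and 1.21 (1.00 to 1.53) at 5 days, a 2.31-fold difference that was the largest of the 10 clock genes. Clock is also the longest of them, and with the length trend removed its log2 ratios were 0.20 and 0.38, at the 76.9th percentile of all genes at 5 days in place of the 91.1st. Its partner Arntl (Entrez 11865; chr7:113207465-113314126, plus strand) was counted with 638, 645 and 855 reads, which is 14.1, 14.6 and 18.9 RPKM. The 0-day and 3-day libraries did not differ beyond counting error (log2 ratio 0.05, -0.11 to 0.21), and the 5-day library was higher, at 0.42 (0.27 to 0.57). That value lay close to the median of all genes, and with the length trend removed it was 0.01.

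The Per genes encode the PERIOD repressors, of which Per1 and Per2 respond quickly to light, glucocorticoids and growth factors in other tissues. Per1 (Entrez 18626; chr11:69095217-69109960, plus strand) was counted with 3195, 2720 and 2331 reads, which is 44.1, 38.5 and 32.2 RPKM. It was lower in each later library, with log2 ratios of -0.20 (-0.27 to -0.12) at 3 days and -0.45 (-0.53 to -0.38) at 5 days, while the median gene was higher. At 5 days the difference grew to -0.76 under TMM scaling and to -1.09 with the length trend removed. Per2 (Entrez 18627; chr1:91415982-91459324, minus strand) was counted with 265, 331 and 261 reads, which is 2.92, 3.74 and 2.88 RPKM. The 3-day library was the highest, at a log2 ratio of 0.35 (0.12 to 0.59), and the 5-day library was back at the 0-day level, at -0.02 (-0.27 to 0.23). With the length trend removed the 3-day value turned to -0.10, and the 5-day value was -0.76. Per3 (Entrez 18628; chr4:151003652-151044665, minus strand), the least abundant of the 3, was counted with 103, 155 and 214 reads, which is 1.11, 1.72 and 2.32 RPKM. It went the opposite way to Per1, with log2 ratios of 0.58 (0.26 to 1.00) at 3 days and 0.99 (0.71 to 1.41) at 5 days. These became 0.13 and 0.25 with the length trend removed.

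The Cry genes encode the cryptochromes, which carry most of the repression of CLOCK and BMAL1. Cry1 (Entrez 12952; chr10:85131700-85185064, minus strand) was counted with 356, 471 and 560 reads, which is 7.56, 10.2 and 11.9 RPKM. Both later libraries were higher than the 0-day one, with log2 ratios of 0.43 (0.24 to 0.64) and 0.65 (0.46 to 0.85). Cry1 stayed above the median of all genes under each scaling, at 0.34 under TMM and 0.21 with the length trend removed at 5 days. Cry2 (Entrez 12953; chr2:92403646-92434043, minus strand) was counted with 193, 207 and 284 reads, which is 3.09, 3.40 and 4.55 RPKM. The 3-day library did not differ from the 0-day one beyond counting error (0.13, -0.15 to 0.43), and the 5-day library was higher, at 0.54 (0.29 to 0.83). With the length trend removed the values of Cry2 turned to -0.17 and -0.03.

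Nr1d1 and Nr1d2 encode the REV-ERB repressors, and both are strongly rhythmic in tissues such as liver. Nr1d1 (Entrez 217166; chr11:98767932-98775333, minus strand) was counted with 49, 51 and 66 reads, which is 1.20, 1.28 and 1.62 RPKM. The libraries could not be told apart at this depth, with log2 ratios of 0.09 (-0.50 to 0.69) and 0.40 (-0.12 to 0.99). In GENCODE M21, its exons share 263 of 3077 bases with those of Thra, a thyroid hormone receptor gene on the opposite strand. Thra was counted with 221, 205 and 350 reads, and the library protocol names no step that keeps the strand. Nr1d1 was counted over 2627 bases, and whether these hold the shared ones was not checked. Nr1d2 (Entrez 353187; chr14:18204054-18239127, minus strand) was counted with 405, 300 and 291 reads, which is 5.62, 4.27 and 4.04 RPKM. Both later libraries were lower, at log2 ratios of -0.39 (-0.62 to -0.18) and -0.47 (-0.70 to -0.26), and they did not differ from each other beyond counting error (-0.08, -0.32 to 0.16). With the length trend removed the values were -0.75 and -1.10, and at 5 days 5.90% of all genes lay lower. At 5 days the interval of Nr1d2 lay below that of Nr1d1, and at 3 days they overlapped.

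Dbp (Entrez 13170; chr7:45705088-45710203, plus strand) is commonly among the genes with the largest daily swing in a tissue. It was counted with 52, 67 and 56 reads, which is 2.0, 2.64 and 2.15 RPKM. The 3 libraries could not be told apart at this depth, with log2 ratios of 0.38 (-0.14 to 0.95) at 3 days and 0.10 (-0.46 to 0.68) at 5 days. The interval of the ratio of counts at 5 days ran from 0.725-fold to 1.60-fold. Under TMM scaling the 5-day value was -0.19. In GENCODE M21, exons of Dbp share 539 of 2993 bases with those of Sphk2, a sphingosine kinase gene on the opposite strand. Sphk2 was counted with 718, 833 and 914 reads. Dbp was counted over 1678 bases, and whether these hold the shared ones was not checked.

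Few clock genes differed by 2-fold. At 3 days 0 of 10 were at least 2-fold higher and 0 were at least 2-fold lower than at 0 days, where 4.08% and 2.41% of the 11325 genes with at least 1 RPKM in either library were. At 5 days 1 was at least 2-fold higher, Clock, and 0 were lower, where 15.5% and 5.91% of 11497 genes were. Per3 lay just under that threshold at 1.99-fold of RPKM + 0.1, and just over it at 2.08-fold in RPKM alone. Between 3 and 5 days 0 of 10 passed it in either direction, where 1.95% of 11375 genes were higher and 3.45% lower. Single values at the threshold depended on the processing. Under TMM scaling 0 clock genes were 2-fold higher and 0 were lower at 5 days, where 7.24% and 9.96% of the same 11497 genes were. Once the length trend was removed, 0 were higher and 2 lower, Per1 and Nr1d2, where 5.05% and 7.61% of genes were.

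Counting error alone was exceeded more often. At 3 days the interval lay above 0 for 4 clock genes, Clock, Per2, Per3 and Cry1, against 41.1% of all genes, and below 0 for 2, Per1 and Nr1d2, against 26.2%. At 5 days it lay above 0 for 5 genes, Clock, Arntl, Per3, Cry1 and Cry2, against 55.1%, and below 0 for Per1 and Nr1d2, against 22.3%. Between 3 and 5 days the genes above 0 bore the same 5 names, against 54.4%, and the 2 below 0 were Per1 and Per2, against 15.3%. These shares were near those of all genes, and the comparisons against 0 days share the 0-day library. The median log2 ratio over the clock genes was 0.24 at 3 days, 0.41 at 5 days and 0.26 between 3 and 5 days, beside 0.10, 0.31 and 0.25 over all genes. With the length trend removed the medians over the clock genes were -0.06, 0.02 and -0.01.

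**Figure D2:**
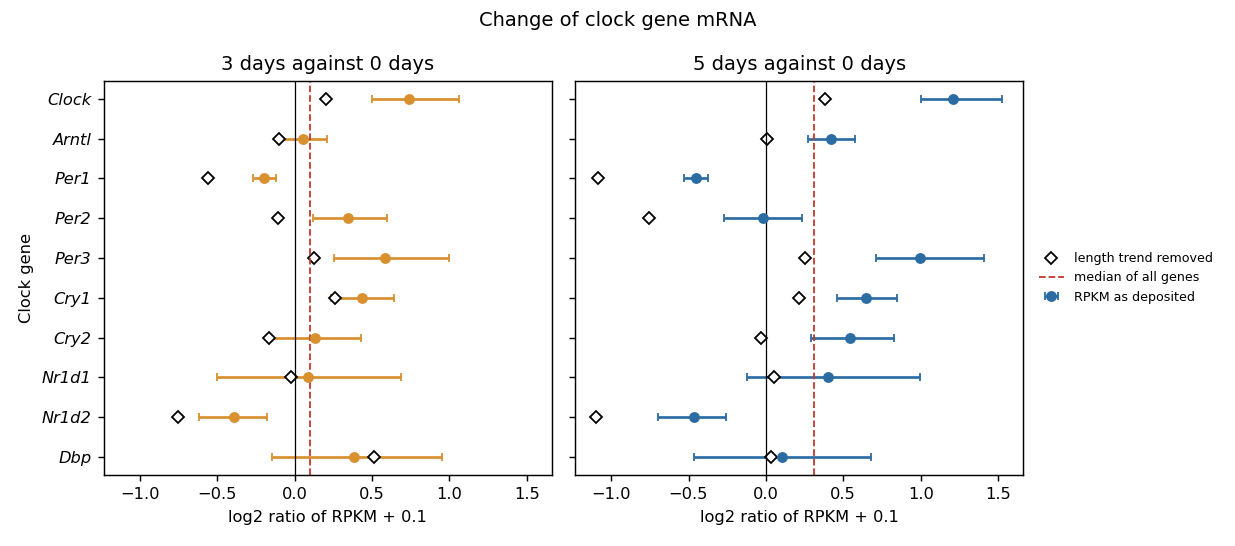
Change of each clock gene at 3 and at 5 days against 0 days, as log2 ratio of RPKM + 0.1 with bars for the 95% exact interval of the ratio of counts. White diamonds give the value with the gene length trend removed and the dashed line gives the median of all genes, 0.10 at 3 days and 0.31 at 5 days. Per1 and Nr1d2 lie below 0 in both panels, and at 5 days the diamonds of Per1, Per2 and Nr1d2 lie between -1.10 and -0.76 and the others between -0.03 and 0.38.

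Many of these values followed gene length. At 5 days Arntl, Cry2, Nr1d1 and Dbp lay within 0.05 of the trend that all genes followed on length, at residual log2 ratios of 0.01, -0.03, 0.05 and 0.03. Cry1, Per3 and Clock lay above it, by 0.21, 0.25 and 0.38. Per2, Per1 and Nr1d2 lay below it at -0.76, -1.09 and -1.10, where 11.5%, 6.04% and 5.90% of all genes lay lower. At 3 days Per1 and Nr1d2 were again below it, at -0.56 and -0.75, Per2 was at -0.10, and Dbp was the farthest above it at 0.51. The part of RNA quality or library preparation in the length trend was not tested.

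**Figure D3:**
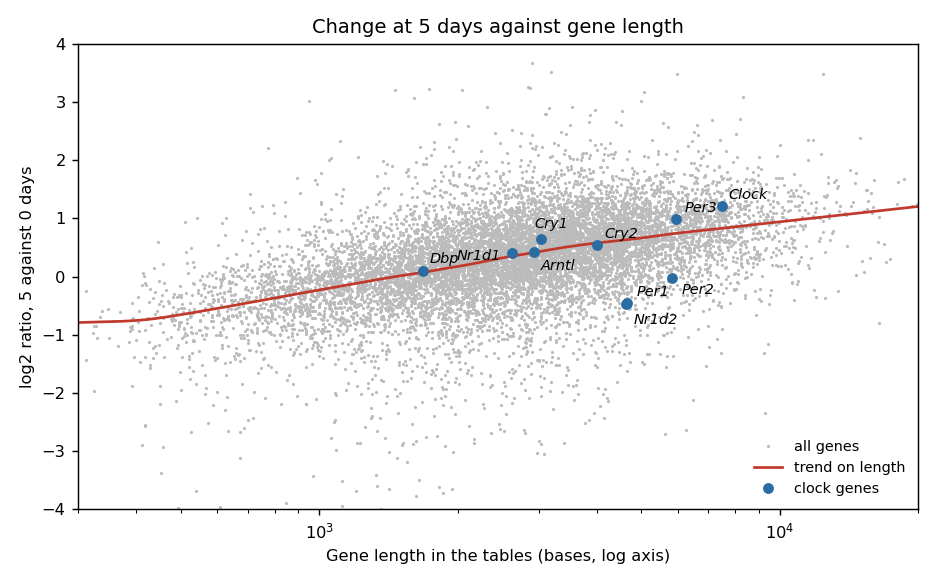
log2 ratio at 5 days against 0 days plotted on gene length (bases, log axis) for genes whose mean reached 1 RPKM (grey), with the trend of all genes on length (red) and the 10 clock genes (blue). Arntl, Cry2, Nr1d1 and Dbp lie on the trend, at residuals from -0.03 to 0.05, and Per1, Per2 and Nr1d2 lie below it, at residuals from -1.10 to -0.76.

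The range over the 3 libraries puts the size of these changes on 1 scale. The highest value of RPKM + 0.1 over the lowest was 1.29-fold for Per2, 1.31-fold for Dbp, 1.32-fold for Nr1d1, 1.34-fold for Arntl, 1.37-fold for Per1, 1.38-fold for Nr1d2, 1.46-fold for Cry2, 1.57-fold for Cry1, 1.99-fold for Per3 and 2.31-fold for Clock. The median over the clock genes was 1.38-fold and the median over all genes was 1.55-fold, with 7 of the 10 clock genes below the latter. Under TMM scaling the medians were 1.45-fold and 1.47-fold, with 5 of 10 below, and with the length trend removed they were 1.25-fold and 1.37-fold, with 6 of 10 below. The immediate early genes of the same libraries, such as Fos and Egr1, which are induced within minutes of a stimulus, had a median range of 3.12-fold over 8 genes.

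The scale of a library cancels in the ratio of 2 genes of that library, and pairs that peak at different hours in other tissues were compared in this way. Arntl stood at 11.7, 11.4 and 11.7 times the RPKM of Nr1d1 at 0, 3 and 5 days. The log2 ratio of this pair differed by -0.04 (-0.66 to 0.58) at 3 days and by -0.01 (-0.59 to 0.57) at 5 days, so that a difference of up to about those bounds was not detectable at this depth. Arntl stood at 7.05, 5.53 and 8.77 times Dbp, with changes of -0.35 (-0.93 to 0.22) and 0.32 (-0.28 to 0.91) against 0 days, and 0.67 (0.11 to 1.23) between 3 and 5 days. Removing the length trend gave changes of -0.63 and -0.02 against 0 days. Cry1 stood at 3.79, 3.89 and 5.53 times Dbp, and none of the 3 intervals of this pair left out 0 (0.04, 0.55 and 0.51). Its changes against 0 days were -0.26 and 0.18 with the length trend removed. Clock stood at 1.23, 1.97 and 2.18 times Nr1d1, with changes of 0.68 (0.02 to 1.35) and 0.83 (0.20 to 1.45). These genes lie far apart in length, and with its trend removed the changes were 0.26 and 0.36.

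Pairs with the more abundant Per1 were known more closely. Arntl stood at 0.319, 0.379 and 0.586 times Per1, with log2 changes of 0.25 (0.07 to 0.42) at 3 days and 0.88 (0.71 to 1.05) at 5 days, and the 5-day library was higher than the 3-day one by 0.63 (0.46 to 0.80). Removing the length trend made these changes larger, 0.46 and 1.10 against 0 days. Arntl stood at 4.82, 3.90 and 6.56 times Per2, lower at 3 days (-0.31, -0.59 to -0.02) and higher at 5 days (0.44, 0.15 to 0.74). With the length trend removed the 3-day change was -0.01. Per1 stood at 15.1, 10.3 and 11.2 times Per2, with changes of -0.55 (-0.80 to -0.30) and -0.43 (-0.70 to -0.17). Of the 7 pairs, which share genes, 4 had an interval that left out 0 at 3 days, 4 at 5 days and 3 between 3 and 5 days.

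**Figure D4:**
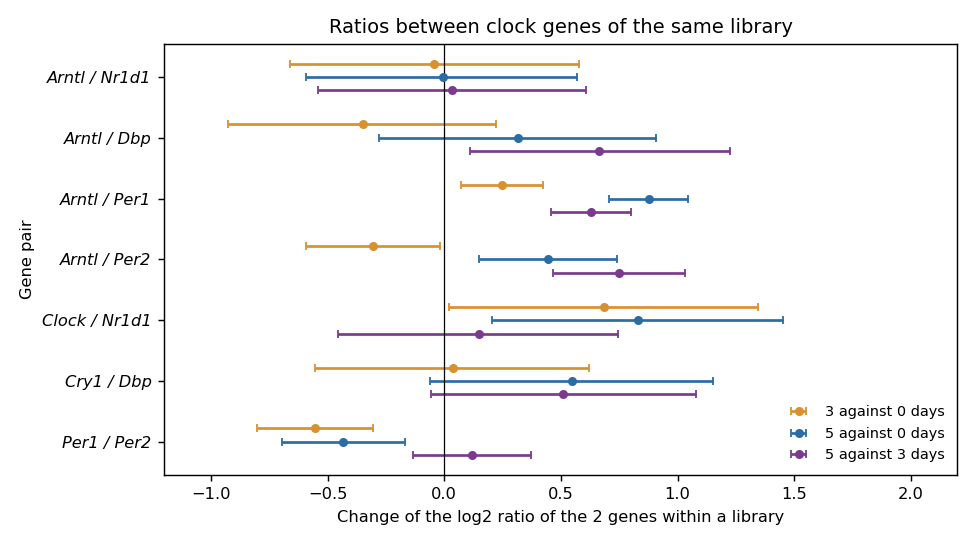
Change of the log2 ratio of 2 clock genes of the same library, for 7 pairs and 3 comparisons, with bars for the 95% exact conditional interval (counting error only). The values of Arntl to Nr1d1 lie between -0.04 and 0.03 with wide bars, and Arntl to Per1 lies above 0 in each comparison.

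Of the 29 other genes of the clock pathway that were listed, all had an entry and 22 reached a mean of 1 RPKM. Their median log2 ratio was 0.07 at 3 days, 0.19 at 5 days and 0.15 between them, and it turned to -0.12 at 5 days under TMM scaling. At 3 days 0 of 21 tested genes were at least 2-fold higher and 2 were lower, Rorb and Ciart, beside 4.08% and 2.41% of all genes. At 5 days 2 of 22 were higher, Nono and Wee1, and 3 were lower, Rorb, Bhlhe40 and Ciart, beside 15.5% and 5.91%. Between 3 and 5 days 1 was higher, Nono, and 1 lower, Rorb, beside 1.95% and 3.45%.

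Of the 3 E-box repressors among them, 2 were well counted and both were lower in the treated libraries. Bhlhe40 (also called Dec1), a transcription factor that competes for E-boxes, was counted with 2459, 1415 and 886 reads, which is 50.9, 30.0 and 18.3 RPKM, with log2 ratios of -0.76 (-0.86 to -0.67) and -1.47 (-1.58 to -1.36). Ciart, a repressor of CLOCK and BMAL1 also called Chrono, was counted with 205, 93 and 75 reads, which is 9.47, 4.40 and 3.47 RPKM, with log2 ratios of -1.09 (-1.47 to -0.74) and -1.42 (-1.85 to -1.06). Bhlhe40 had its lowest value at 5 days, and the 3-day and 5-day values of Ciart did not differ beyond counting error. Both stayed lower with the length trend removed, at -1.92 and -1.40 at 5 days. Bhlhe41, the paralogue of Bhlhe40, has 2 entries, of which the more abundant was at 4, 5 and 1 reads.

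The ROR receptors activate the elements at which REV-ERB proteins repress. Rorb, best known from brain and retina, was counted with 2156, 879 and 410 reads, which is 15.0, 6.25 and 2.84 RPKM. It was lower in each later library, at log2 ratios of -1.25 (-1.37 to -1.15) and -2.35 (-2.55 to -2.24), and at -1.85 and -3.27 with the length trend removed. Rora was at 18, 6 and 12 reads, below 1 RPKM in each library. The activator paralogues Npas2 (7, 2 and 0 reads) and Arntl2 (0, 1 and 0 reads) were near or under the floor of 3 reads below which no ratio is given.

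Among D-box genes, the PAR bZIP factor Tef was at 5.21, 6.44 and 8.22 RPKM (log2 ratios 0.30 and 0.65 at 3 and 5 days), Hlf was at 1.36, 1.32 and 2.03 RPKM (-0.05 and 0.54), and the D-box repressor Nfil3 was at 24.5, 28.5 and 28.4 RPKM (0.22 and 0.21, and -0.10 at 5 days under TMM). Tef and Hlf, relatives of Dbp, were thus highest at 5 days, while with the length trend removed their 5-day values were 0.05 and -0.18. Among outputs, Wee1, a kinase that holds back entry into mitosis, was counted with 346, 508 and 946 reads, which is 6.52, 9.81 and 17.8 RPKM, with log2 ratios of 0.58 (0.39 to 0.79) and 1.44 (1.27 to 1.63). It stayed higher with the length trend removed, at 0.93. Nampt, the rate-limiting enzyme of NAD salvage, was at 24.1, 28.4 and 24.5 RPKM, with log2 ratios of 0.24 and 0.03. The 5-day value was -0.28 under TMM, and with the length trend removed both turned, to -0.12 and -0.60.

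Several kinases set the stability of PER and CRY. Csnk2b, the regulatory subunit of casein kinase 2, was the most abundant of them at 178, 143 and 146 RPKM, with log2 ratios of -0.32 and -0.29. Csnk2b is short, and with the length trend removed these were 0.005 and -0.13. Csnk1d and Csnk1e, the casein kinases 1 that phosphorylate PER, had log2 ratios of 0.24 and -0.46 at 5 days, which became -0.06 and -0.77 under TMM scaling, and -0.30 and -0.84 with the length trend removed. Gsk3b was at 0.78 at 5 days and at -0.08 once the length trend was removed. Timeless, which also acts in DNA replication, was at 10.2, 10.8 and 19.9 RPKM, a log2 ratio of 0.95 (0.83 to 1.09) at 5 days that was 0.65 under TMM and 0.33 with the length trend removed. Nono was counted with 28, 33 and 102 reads, a log2 ratio of 1.73 at 5 days, but it has 2 entries of near-equal length, as Fbxw11 has 4 and Ncor1 has 3. How reads shared between entries of a gene were counted is not given in the sources used here. These 3 genes are therefore uncertain, as is Bhlhe41 with its 2 entries.

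**Figure D5:**
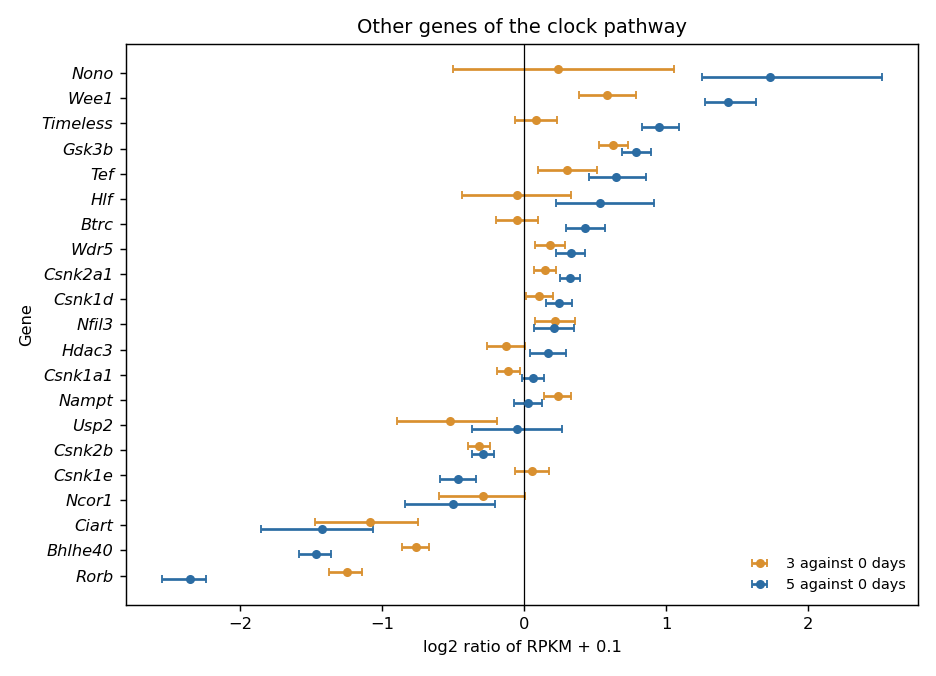
log2 ratio at 3 days and at 5 days against 0 days for 21 of the 22 other clock pathway genes whose mean reached 1 RPKM, ordered by the 5-day value, with bars for the 95% exact interval of the ratio of counts. Rorb, Bhlhe40 and Ciart lie lowest, at -2.35, -1.47 and -1.42 at 5 days, and Nono and Wee1 lie highest, at 1.73 and 1.44.

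The genes most like Clock and Nr1d2, which had the largest rise and the largest fall at 5 days, were sought among 8192 genes whose mean reached 5 RPKM. Likeness was the distance between the log2 ratios at 3 and 5 days, over only 3 libraries. Nfatc3, Atf6 and D5Ertd579e lay nearest to Clock, at distances of 0.007, 0.013 and 0.013, and 87 genes lay within 0.1. Rp9 and Bcap31 lay near Nr1d2, at distances of 0.014 and 0.015, with 96 genes within 0.1. Neither pattern was therefore particular to a clock gene.

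Other features differed between the libraries too. Late neutrophil markers, led by S100a9, had a median change of -1.84 at 5 days and were lower in 10 of 10 genes, osteolineage markers had a median of -1.32 and were lower in 6 of the 6 whose mean reached 1 RPKM, and monocyte and macrophage markers had a median of 1.27 and were higher in 7 of 8, or 6 of 8 under TMM. At 5 days 7528 of all 11144 genes had a ratio above 0 and 3616 below it, with 5616 above it under TMM. B cell, T and NK cell, erythroid and haematopoietic progenitor markers had medians of -0.46, -0.58, 0.12 and -0.09. The erythroid median turned to -0.19 under TMM and -0.24 with the length trend removed, and the progenitor median was then -0.40 and -0.51. At 3 days the medians were -0.19 for late neutrophil, -0.34 for osteolineage, 0.72 for monocyte and macrophage, -0.34 for B cell, -0.83 for T and NK cell, 0.05 for erythroid and -0.48 for progenitor markers, so that the medians of T and NK cell and of progenitor markers were lower at 3 than at 5 days, a direction shown by 7 of 8 and 7 of 7 markers, or under TMM by 5 of 8 and 5 of 7. With the length trend removed, the 3-day medians turned to 0.14 for late neutrophil and -0.14 for erythroid markers, and the erythroid one was -0.03 under TMM. In such mixed cells, fewer cells of a type and less RNA per cell cannot be told apart. The immediate early genes were lower in 8 of 8 at 5 days, with a median of -1.64, beside -0.45 for Per1. Glucocorticoid targets, a list that also holds Per1, had a median of -0.32 over 7 genes and did not move together. Tsc22d3, the gene of the glucocorticoid-induced leucine zipper, was at 278, 172 and 94.3 RPKM, a log2 ratio of -1.56 at 5 days, whereas Fkbp5 was at 12.6, 19.1 and 25.2 RPKM, a log2 ratio of 1.00. Of 6 temperature-responsive genes, the 4 whose mean reached 1 RPKM had a median of 0.13, which turned to -0.18 under TMM and with the length trend removed. The chaperone gene Hspa8, their most abundant member, was at 0.36 and the heat shock gene Hsph1 at 0.82. Of the cold-inducible genes, Cirbp was at -0.70 and the more abundant Rbm3 at -0.10. The heat shock gene Hspa1a, under that level, was counted with 54, 60 and 5 reads, a log2 ratio of -2.64 at 5 days, and Hspa1b with 27, 14 and 4 reads, a ratio of -1.91. The part of cell composition in the values of the clock genes was not tested, and the hour of collection and the days of LECT2 cannot be told apart with 1 library per time point.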

How the data were processed

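Bulk RNA sequencing of flushed mouse marrow was analysed in 3 libraries, 1 each after 0, 3 and 5 days of LECT2. The authors enriched poly(A) RNA, sequenced it on an Illumina instrument and quantified expression with Cufflinks. The aligner and annotation are not given in the sources used here, and the submitters' processing notes name build mm8. The 3 deposited tables, each comparing 2 libraries, hold read counts per gene, which are not normalised, and the authors' RPKM values, scaled to gene length and to the reads on all listed genes. Their gene length in bases (a unit of its own kind in the deposited tables) was used for the length trend. RPKM equalled count over length and total in all but 18 entries at 0 days and 14 at 3 days, and the tables agreed on every shared value. Columns holding the authors' own log2 ratios, P values and false discovery rates were not used, and 0 columns of per-sample values stayed without a sample.

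Of 17559 entries, 28 had no symbol and 17 of these were named from RefSeq, and Ciart, entered under an older symbol, was found by its gene ID. The entry with the highest mean RPKM stood for a repeated symbol, which left 17250 names. Ratios were taken of RPKM + 0.1, which understates changes of low genes, and depth was 15146983 to 15523952 reads, with 1 read in a gene of 1000 bases worth 0.0644 to 0.0660 RPKM. Intervals are 95% exact (Clopper-Pearson) for count ratios and exact conditional for ratios of pairs. They cover counting error only, since no molecular identifiers were used and PCR copies of 1 molecule count as several reads. A change was counted at 2-fold with at least 1 RPKM in either library.

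The alternatives were pseudocounts of 1 and 0.01, TMM (edgeR 4.0.16) and median-of-ratios (DESeq2 1.42.0) scaling of the counts, scaling without the 100 most abundant genes, the sum of repeated entries, removal of a lowess trend on log10 gene length (span 0.3), minimum levels of 5 RPKM or none, and folds of 4 and 1.5. No model was fitted and no p value computed. The interval code was checked on data made with known answers, and the removal of the length trend was not. Named were all 10 clock genes, other clock pathway genes changed at least 2-fold with more than 3 reads in both libraries, the most abundant gene of each role, and the 3 genes nearest to the largest rise and fall; further pathway genes, and genes of the lists in the closing paragraph, were named after their values were seen. Some genes that this rule would name are not reported here. The clock genes and all lists were chosen with earlier results of these data known. Gene positions are from GENCODE M21 (GRCm38), which is not the build in the processing notes. They were used for the exon overlaps given for Nr1d1 and Dbp, and not for any count or ratio. Python 3.11.15 with scipy 1.17.1 and statsmodels 0.14.6 was used.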

Additional observations from a re-analysis of the deposited data

How the results depend on the processing

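With 1 library per time point no library could be left out, and no paired analysis was possible because each group holds a single sample. Per1 and Nr1d2 were lower, and Clock, Per3 and Cry1 higher, under all 8 settings at both 3 and 5 days against 0 days. Of 30 values (10 clock genes in 3 comparisons), those that left their interval, or turned sign where it excluded 0, were counted. Turns of sign inside an interval that held 0 were not. The number was 22 with the length trend removed, 13 with TMM and 12 with the median-of-ratios. It was 5 when the 100 most abundant genes were left out of the scaling and 2 with a pseudocount of 1. With a pseudocount of 0.01 or with entries summed it was 0.

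Among values whose interval left out 0, removing the length trend turned Per2 to -0.105 at 3 days and Cry2 to -0.0348 at 5 days. Cry1 at 5 against 3 days turned to -0.0682, and to -0.00908 under TMM and -0.00295 under median-of-ratios scaling. Other values turned sign where the interval held 0, as Arntl did at 3 days, to -0.103 with the length trend removed. With that trend removed, the median over clock genes at 5 days was 0.0197. The change of Arntl to Per1 was then 0.46 at 3 days and 1.10 at 5 days, and that of Arntl to Per2 was -0.00804 and 0.768. The median over other clock genes at 5 days turned to -0.12 under TMM, -0.11 under median-of-ratios, -0.0112 when the 100 most abundant genes were left out of the scaling, and -0.229 once the length trend was removed. At 5 against 3 days it was -0.0697, -0.0635, 0.0488 and -0.140.

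The count of clock genes 2-fold higher at 5 days, 1 here, was 0 with a pseudocount of 1, under both scalings, with the length trend removed, with a minimum of 5 RPKM and at a fold of 4, 2 with a pseudocount of 0.01, and 3 at a fold of 1.5. At 3 days it was 1 at a fold of 1.5. The count 2-fold lower at 5 days was 2 with the length trend removed. The median range over 3 libraries, 0.46 on the log2 scale, was 0.32 to 0.54 under 4 alternatives chosen after seeing the data. Depth limits Nr1d1 and Dbp, at 49 to 67 reads, whose intervals span over 1 log2 unit.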
